A study of Homo sapiens with 12 samples.

Results

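The cytosolic ribosomal protein genes were examined across knockdowns of SIRT1 and IGF2BP2 in MDA-MB-231 cells. Members were protein-coding genes, matched by Ensembl identifier, whose symbol is RPL or RPS followed by a number with an optional suffix (A, X, L, L1 or AL), together with RPLP0, RPLP1, RPLP2 and RPSA. The RPS6K kinases were left out. This gave 85 of the 60649 genes in the table, 32 of the small subunit and 53 of the large subunit. A filter on low read counts kept 83 of them for testing. RPL10L had 1 read in 1 control library and none elsewhere, RPL3L had between 0 and 7 normalised counts, and neither was tested.

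MDA-MB-231 is an established mesenchymal, triple-negative breast cancer line. All 12 libraries came from cells infected with lentivirus made in HEK-293T cells and kept under puromycin, in 4 groups of 3. Control cells carried a sham-targeting shRNA, and the other groups carried an shRNA against SIRT1, an shRNA against IGF2BP2, or both, and are called SIRT1 KD, IGF2BP2 KD and double KD. The SIRT1 enzyme removes acetyl groups from proteins at the cost of NAD. The IGF2BP2 protein binds mRNAs and affects their stability and location. The infection, the selection and the growth conditions were shared by every group, control included. Nothing in the sources used here says that replicates were separate infections or cultures, so the p-values measure the spread between these libraries, which may be technical.

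Each ribosome joins a small and a large subunit, and each subunit is a folded rRNA covered by ribosomal proteins. Their genes are among the most highly transcribed in dividing cells. Most of their mRNAs begin with a C followed by an unbroken run of pyrimidines, the terminal oligopyrimidine or TOP tract, through which mTORC1 and LARP1 set how well these mRNAs are translated and how long they last. A few members have a paralog with the suffix L, L1 or AL that is usually expressed at a lower level or in fewer tissues.

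The start tract was read from RefSeq promoter sequences (GRCh38.p14), which held 68 of the 85 members. It was counted where the base at an annotated start is C and at least 4 further C or T follow without a break. By this definition 47 of the 68 members (69.1%) had it at one of their listed starts, against 5.14% of the 27305 gene symbols in that set. The windows below show 15 bases before and 15 bases from the start of genes that the results turn on. Where several starts are listed, as for RPL10 (3) and RPL11 (2), the start with the longest pyrimidine run is shown. Capitals mark the pyrimidine run from the start base, and a line without capitals has no such run.
RPS24: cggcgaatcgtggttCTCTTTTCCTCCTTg
RPL37A: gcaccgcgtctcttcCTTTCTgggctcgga
RPL28: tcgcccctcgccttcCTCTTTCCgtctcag
RPL10: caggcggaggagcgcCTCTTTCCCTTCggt
RPL11: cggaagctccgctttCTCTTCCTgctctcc
RPL22: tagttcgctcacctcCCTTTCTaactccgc
RPL22L1: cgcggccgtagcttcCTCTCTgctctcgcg
RPL7L1: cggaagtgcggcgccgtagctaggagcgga
RPS4X: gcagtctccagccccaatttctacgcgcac
RPS27L: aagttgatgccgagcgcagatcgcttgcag
RPS24, which rose in SIRT1 KD, has a run of 14 pyrimidines at chr10:78033848-78033877 (plus strand). RPL11 has a run of 8 at chr1:23691791-23691820 (plus strand). The windows of RPL7L1 (chr6:42879601-42879630, plus strand) and RPS4X (chrX:72277234-72277263, minus strand), the members that fell most, begin without it, as does that of RPS27L. RPL22 and its paralog RPL22L1 both have it. The annotated start may not be the start used in these cells.

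Libraries held 19522606 to 22509142 reads, except double KD replicate 2 with 15243152. SIRT1 was between 799 and 863 normalised counts in control. In SIRT1 KD it was between 496 and 547, and double KD libraries held 380 to 436. IGF2BP2 was between 3045 and 3127 in control. In IGF2BP2 KD it was between 709 and 841, and double KD libraries held 715 to 992. VIM, CD44 and AXL, markers of the line, were high in every library, while PGR and ESR1 were between 0 and 7.66 normalised counts. Of the other genes listed as low in the line, CDH1 was at 0.89 to 24.1. ERBB2 was at 2038 to 2550, EPCAM at 134 to 243 and GATA3 at 121 to 221, so these were not absent. Immune markers summed to at most 29.7 normalised counts in any library. The 6 fibroblast markers summed to 289 to 301 in control and to 567 to 1017 in double KD, with COL1A1 at 218 to 230 and at 536 to 994. COL1A2 of the same list was lower in double KD, at 11 to 13.4 against 42.1 to 49.5 in control, while DCN and PDGFRA were below 5 in every library. The 6 epithelial markers, mostly KRT8, summed to 21112 to 21314 in control and to 16448 to 23948 in double KD. Their sum was 23618 to 25640 in SIRT1 KD, above every control, and 17811 to 18853 in IGF2BP2 KD, below every control. The part of these cells or genes in the results was not tested. Of the 6 HEK-293T markers CRABP1 was at 0 throughout, and WT1 made up nearly all of their sum. That sum was 184 to 211 in control and 168 to 216 in IGF2BP2 KD. It was lower in SIRT1 KD, at 88.4 to 98.4, and in double KD, at 52.2 to 67.0, and its part in the results was not tested.

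Double KD replicate 2 stood apart, so counts are given with and without it. Ribosomal protein genes in that library were both higher at the median, by 0.26 log2 against its partners, and more spread out. Their log2 difference from the other 2 double KD libraries had an SD of 0.388, against 0.0348 to 0.0974 for the control, SIRT1 KD and IGF2BP2 KD libraries. Over all 13207 protein-coding genes the SD was 0.390, against 0.192 to 0.237. The spread was thus wider in both sets. The members, narrower than all genes in the other 3 groups, were about as wide as all genes here. In this library 19 members lay more than 0.5 log2 above their partners and 6 lay more than 0.5 below. RPL13A, a large-subunit protein, was at 37300 normalised counts there, against 18993 and 21294 in its partners. RPS27 was at 1775 against 3495 and 4020, and RPL29 at 5258 against 7795 and 9246. The share of reads from mitochondrially encoded genes was 1.18% in this library and 2.40% and 2.45% in its partners. Over 13207 protein-coding genes its deviation followed transcript GC content (Pearson r = 0.53, Spearman rho = 0.60, across genes of 1 library), whereas over the 83 members r was 0.10.

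Levels of the members in control cells spanned nearly 3 orders of magnitude per kilobase of annotated exon. The median member had 2529 normalised reads per kb, against 112 for all 13207 protein-coding genes tested, and 65 of the 83 members were in the top 5% of those genes. The most abundant were RPS18 (13886 ± 1005, SD, n = 3), RPL7A (11182 ± 217), RPS12 (10577 ± 100), RPL13A (10242 ± 201) and RPL8 (10151 ± 423). RPS18 lay beyond its SD from the next, and RPS12 lay above RPL13A by more than either SD. RPL8 overlapped both RPS12 and RPL13A. RPS6, the small-subunit protein phosphorylated by S6 kinase, was at 6092 ± 182 and RPS4X at 4899 ± 206. At the other end, 12 members were under 500 per kb.

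**Figure D1:**
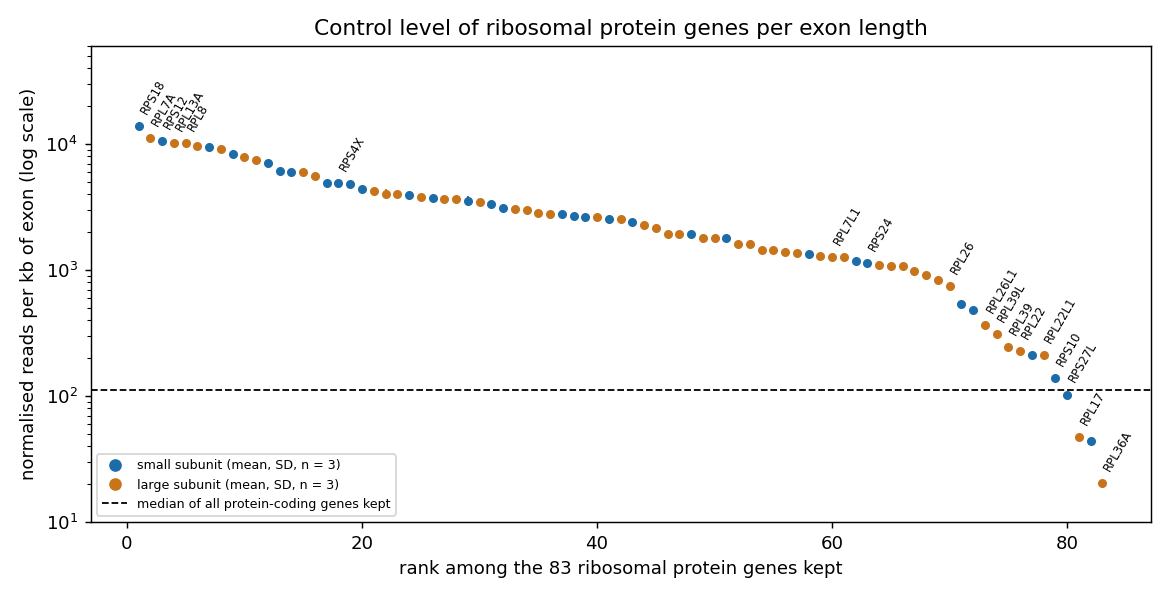
Mean control level of the 83 tested members per kb of annotated exon (log scale, vertical axis) against their rank (horizontal axis), with SD over 3 libraries and the median of all protein-coding genes as a dashed line. RPS18 is highest at 13886, and the lowest members, among them RPS27L, RPL17 and RPL36A, lie below the dashed line at 112.

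Among the lowest tested members were RPS10 (140 ± 7.06 per kb), RPS27L (103 ± 4.78), RPL17 (47.6 ± 2.37) and RPL36A (20.4 ± 0.74). RPS10, RPL17 and RPL36A share exons with the annotated read-through genes RPS10-NUDT3, RPL17-C18orf32 and RPL36A-HNRNPH2, which were listed at 0 in every library, so the counting could not split these reads and their levels are uncertain. Many members also have near-identical pseudogenes, whose counted reads amounted to 0.50% to 0.68% of member reads. Reads that match a member and a pseudogene equally may be missing from both, and this share does not show how many. Exon length covers every annotated transcript, including retained introns, so a level per kb is understated for genes with many long transcripts.

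As counted, and with the limits just given, paralogs were mostly below their parents. RPL26L1 was at 366 ± 16 per kb and RPL26 at 747 ± 52, RPL22L1 at 211 ± 11 and RPL22 at 227 ± 4, and RPS27L at 103 against 3553 ± 306 for RPS27. RPL39L (309 ± 5) and RPL36AL (2529 ± 38) were above RPL39 (246 ± 10) and RPL36A. RPL7L1, a nucleolar relative of RPL7 found in precursors of the large subunit, was at 1265 ± 30, close to RPL7 at 1614 ± 7. RPL3 was at 3663 ± 91 while RPL3L, known from muscle, was at 2 per kb.

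Members took 3.85%, 3.73% and 3.85% of reads in the control libraries. In SIRT1 KD the shares were 4.16%, 3.98% and 4.13%, each above every control. In IGF2BP2 KD they were 3.63%, 3.69% and 3.62%, each below every control. Double KD libraries had 3.34%, 3.99% and 3.56%, so replicate 2 was above every control and the other 2 were below. The group means were 3.81% ± 0.0689 (SD, n = 3) in control, 4.09% ± 0.0975 in SIRT1 KD, 3.64% ± 0.0370 in IGF2BP2 KD and 3.63% ± 0.333 in double KD, or 3.45% without replicate 2. Mitochondrially encoded genes took 1.99% to 2.22% of reads in control, 2.54% to 2.57% in SIRT1 KD and 2.375% to 2.56% in IGF2BP2 KD, so both single knockdowns lay above control. With these genes out of the total the share of the members was 3.90% in control, 4.20% in SIRT1 KD and 3.74% in IGF2BP2 KD. The epithelial marker sum was also above control in SIRT1 KD and below it in IGF2BP2 KD, and its part in these shares was not tested.

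**Figure D2:**
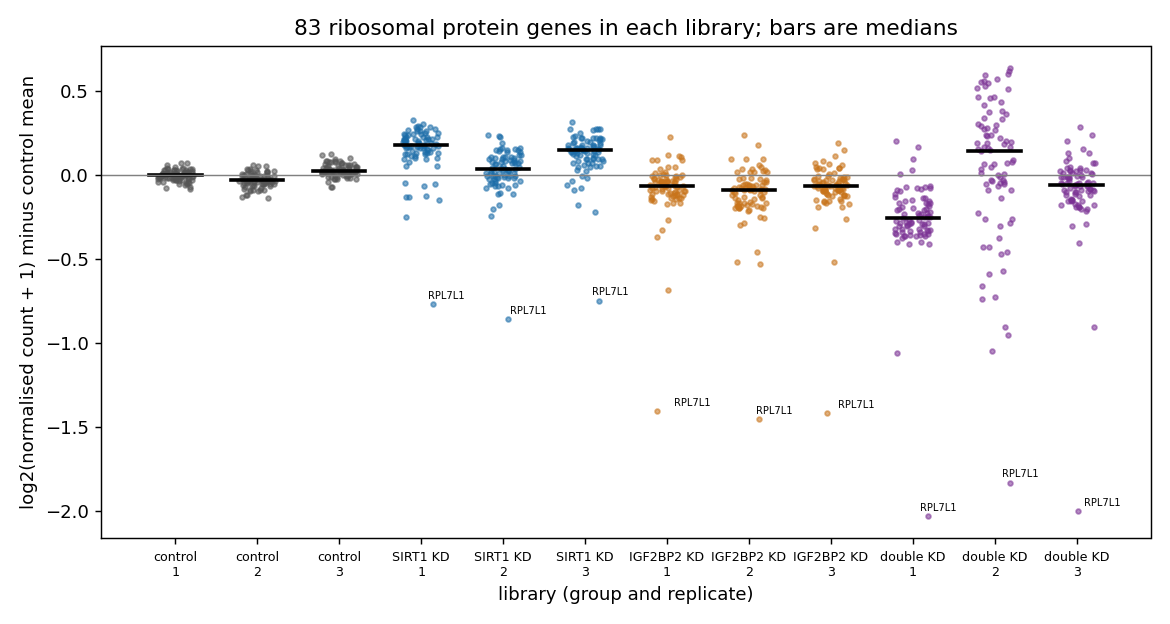
Each point is 1 of 83 ribosomal protein genes in 1 library, as log2(normalised count + 1) minus the control mean (vertical axis), for the 12 libraries (horizontal axis); bars are medians. The medians are 0.18, 0.04 and 0.15 in SIRT1 KD, -0.06, -0.09 and -0.06 in IGF2BP2 KD, and -0.25, 0.14 and -0.06 in double KD, where replicate 2 is the widest.

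The same pattern held gene by gene, where the median member lay 0.18, 0.04 and 0.15 log2 above the control mean in the 3 SIRT1 KD libraries. IGF2BP2 KD medians were -0.06, -0.09 and -0.06, while double KD medians were -0.25, 0.14 and -0.06. Medians over all genes were between -0.01 and 0.01 in every library. A lower count in every cell and loss of a transcript from some cells cannot be told apart in such bulk libraries.

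Knockdown of SIRT1 was followed by slightly higher levels of many ribosomal protein mRNAs and by a fall of RPL7L1. With all 12 libraries, 7 of the 83 members rose and 1 fell (limma on log2(normalised count + 1), adjusted p under 0.05 over 17576 genes), where 12.9% of all genes rose and 15.7% fell. The median member differed by 0.12 log2 and 76 of 83 had a value above 0, against a median of 0.00 over all genes. In 40 of 83 members every SIRT1 KD library lay above every control library, compared with 25.0% of all genes, and in 6 every one lay below, compared with 26.0%. Leaving out double KD replicate 2, which is in neither group but feeds the shared estimate of spread, gave 34 that rose and 2 that fell, against 18.4% and 20.4% of all genes.

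RPS24, a small-subunit protein needed to process the small rRNA precursor, was at 8912, 8766 and 9219 normalised counts in control. It was at 11069, 10476 and 10865 in SIRT1 KD, so the groups did not overlap. RPS24 rose by 0.27 log2 (SE 0.063, adjusted p = 0.00328), or 1.20-fold. In IGF2BP2 KD it was at 9547, 9181 and 9279, and in double KD at 8447, 8655 and 9842, and neither group passed the test against control (adjusted p = 0.60 and 1.0).

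RPL6, a large-subunit protein, was at 6542, 6232 and 6470 in control and at 7604, 7533 and 7717 in SIRT1 KD, a rise of 0.25 log2 (SE 0.063, adjusted p = 0.00584). RPL23, which like RPL5 and RPL11 can bind MDM2, went from 9417, 9613 and 10099 to 11490, 10862 and 11264 (0.21 log2, adjusted p = 0.0124), a call lost without control replicate 1 or SIRT1 KD replicate 1 (adjusted p up to 0.0697). The calls of RPS24 and RPL6 held under all 25 alternatives run. RPL9, RPL37A, RPL31 and RPS7 rose by 0.21 to 0.24 log2, and each of these calls was lost under 7 or more alternatives, including some that left out 1 control or SIRT1 KD library. Without SIRT1 KD replicate 1 the count of members that rose was 2, without control replicate 1 it was also 2, without control replicate 2 or SIRT1 KD replicate 3 it was 3, and without control replicate 3 it was 4. Of all genes 9.39% to 9.99% rose in these 5 fits. Without double KD replicate 1 it was 15 members, against 13.9% of all genes.

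**Figure D3:**
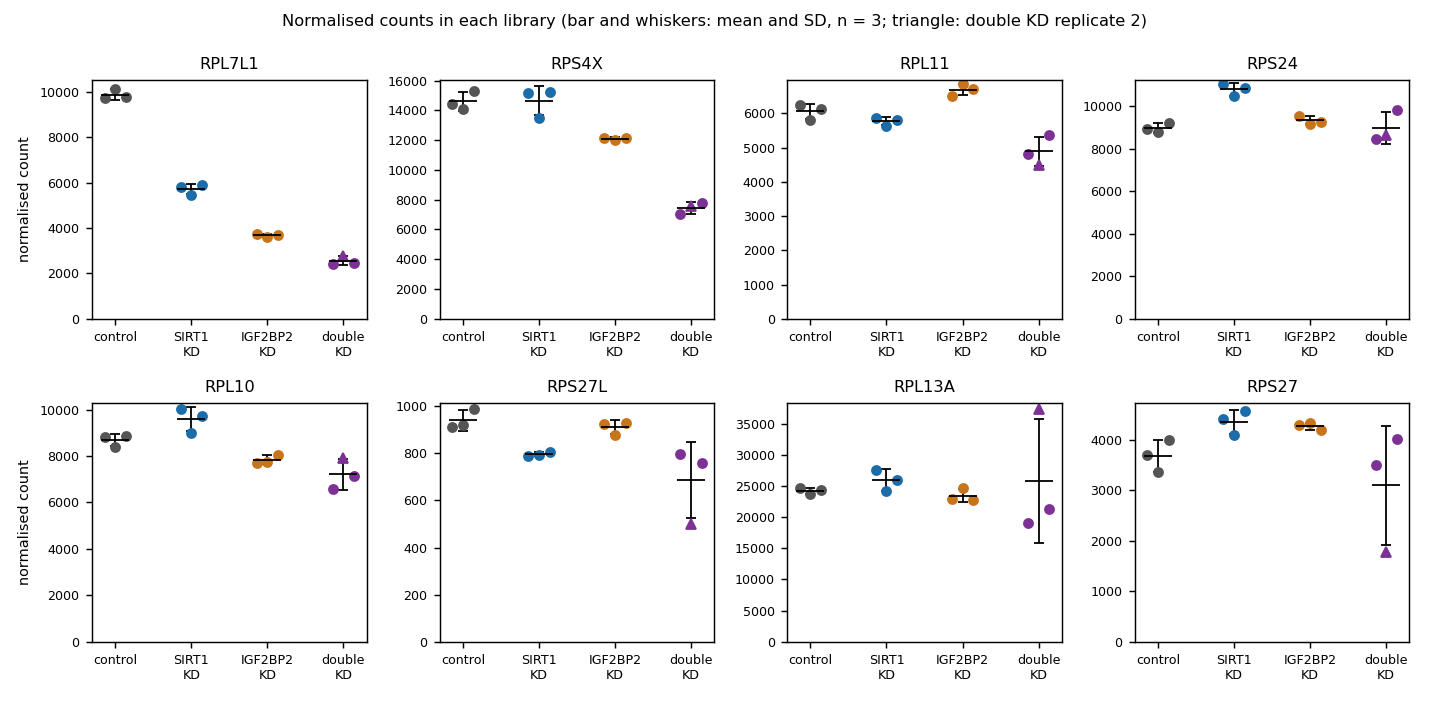
Normalised counts (vertical axes, from 0) of 8 members in each library by group, with the mean and SD of 3 libraries; triangles are double KD replicate 2. RPL7L1 separates every group with little spread. RPS4X separates IGF2BP2 KD and double KD from control, while SIRT1 KD overlaps control. For RPL13A and RPS27 the triangle, at 37300 and 1775, lies far from its 2 partners.

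RPL7L1 was the member that fell in SIRT1 KD, and it fell in the other knockdowns too. Its normalised counts were 9718, 10148 and 9770 in control, 5807, 5460 and 5886 in SIRT1 KD, 3727, 3612 and 3702 in IGF2BP2 KD, and 2421, 2775 and 2468 in double KD. No library of any group overlapped another group. Group means were 57.9%, 37.3% and 25.9% of control. The log2 differences from control were -0.79 (adjusted p = 3.96e-08), -1.42 (adjusted p = 1.45e-10) and -1.95 (adjusted p = 4.07e-13), each with an SE of 0.063. The double KD was below both single knockdowns, by 1.16 log2 from SIRT1 KD and by 0.53 from IGF2BP2 KD (adjusted p = 7.57e-10 and 4.99e-06). Whether the knockdowns add was tested by the interaction, the difference between double and SIRT1 KD less that between IGF2BP2 KD and control. For RPL7L1 it was 0.26 (95% interval 0.07 to 0.45, adjusted p = 0.13) and did not pass. The parent RPL7 was at 4706, 4701 and 4670 in control, and its values of 0.14, 0.03 and 0.10 log2 in the 3 knockdowns did not pass in 12 libraries. In 11 libraries its value in SIRT1 KD passed (adjusted p = 0.0363).

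After knockdown of IGF2BP2 most members lay slightly below control, and few passed the test. By limma none rose and 4 fell in the 12 libraries (1 and 7 at an unadjusted p under 0.05), where 6.86% of all genes rose and 9.39% fell. Shares of all genes at an unadjusted p were not counted, here or below, so such counts have no background. The median member was at -0.08 log2, with 12 of 83 above 0. In 35 of 83 members every IGF2BP2 KD library lay below every control, compared with 21.5% of all genes, and in 3 every one lay above, compared with 19.8%. The count that rose was 0 by edgeR and DESeq2 too, and the count that fell was 4 and 3. Of all 17576 genes 1418 and 1443 rose and 1724 and 1714 fell by these tools. The counts without double KD replicate 2 were 2 up and 13 down, against 12.6% and 15.2% of all genes. The background of libraries that do not overlap was then 19.6% above and 21.0% below over the genes kept.

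After RPL7L1 the clearest fall was in RPS4X, the X-linked small-subunit protein S4. It was at 14436, 14099 and 15293 in control and at 12146, 12001 and 12167 in IGF2BP2 KD, without overlap, a fall of 0.27 log2 (SE 0.064, adjusted p = 0.0064). RPL22L1 was at 463, 512 and 496 in control and at 380, 357 and 393 in IGF2BP2 KD (-0.38 log2, adjusted p = 0.0316), while its parent RPL22 was at -0.04 log2 and did not pass. The RPL22L1 call was lost without any 1 of the control or IGF2BP2 KD libraries, and that of RPS4X without control replicate 3 (-0.24 log2, adjusted p = 0.0505). The count that fell was 1 without control replicate 3 and 2 without control replicate 1, control replicate 2, IGF2BP2 KD replicate 1 or IGF2BP2 KD replicate 2. Of all genes 6.01% to 7.31% fell in these fits. IGF2BP2 KD replicate 2 also deviated from its partners with GC content (r = 0.48 over 13207 genes and 0.51 over the members).

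The 2 members that rose without double KD replicate 2 were RPS27 and RPL11. RPS27 was at 3690, 3355 and 3988 in control and 4294, 4324 and 4191 in IGF2BP2 KD (0.22 log2, adjusted p = 0.00385 in 11 libraries and 0.63 in 12). RPL11 was at 6233, 5809 and 6126 in control and at 6515, 6851 and 6714 in IGF2BP2 KD (0.14 log2, adjusted p = 0.0338 in 11 libraries and 0.15 in 12).

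In the double KD 13 members fell and none rose against control by limma in all 12 libraries (18 and 2 at an unadjusted p under 0.05, and 14 or 13 and 0 by edgeR or DESeq2), where 16.7% of all genes rose and 17.5% fell, so the share of members that fell was near that of all genes. Of all 17576 genes 3059 and 2849 fell and 3032 and 2923 rose by edgeR and DESeq2. The median member was at -0.06 log2. Without replicate 2 the result for the members was larger: 46 fell and 1 rose, against 20.0% and 19.1% of all genes, and the median was -0.17. With double KD replicate 1 left out instead, 12 fell and 7 rose, against 17.1% and 18.1% of all genes, and the median was 0.03, so the direction of the median turned on which library was left out. In 42 of 83 members the remaining 2 libraries both lay below every control, against 28.5% of all genes, and with replicate 2 this held for 13, against 21.3%. Both lay above every control in 3 members, against 28.2%, and all 3 libraries did in 2, against 20.9%. Without control replicate 3 the count that fell was 8, against 13.5% of all genes.

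The 13 calls that fell in the 12-library fit were all called again without replicate 2. RPS4X was at 7006, 7558 and 7791 in double KD, below every library of the other groups and at 51.0% of control. It fell by 0.97 log2 against control (SE 0.064, adjusted p = 1.91e-09), by 0.97 against SIRT1 KD and by 0.70 against IGF2BP2 KD (adjusted p = 8.78e-09 and 2.19e-07). In SIRT1 KD alone it was at 15192, 13521 and 15244, overlapping the control range, with a difference of 0.00 log2 (adjusted p = 0.98, 95% interval -0.13 to 0.14). The interaction was -0.70 (SE 0.090, adjusted p = 6.32e-04) and -0.72 without double KD replicate 2, and it held under all 24 alternatives with adjusted p no larger than 0.0052.

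RPL11, which with RPL5 and the 5S rRNA binds MDM2, was at 4813, 4502 and 5354 in double KD, below all control libraries. It fell by 0.31 log2 against control (SE 0.066, adjusted p = 0.00112) and by 0.46 against IGF2BP2 KD (adjusted p = 3.53e-05). Its interaction was -0.39 (adjusted p = 0.0315), but this call was lost under 8 of 24 alternatives, each leaving out 1 library, where adjusted p reached 0.11. The libraries were each control and each SIRT1 KD replicate and IGF2BP2 KD replicates 2 and 3, and without any 1 of them RPS4X was the member called. Its partner RPL5 was at 13863, 13814 and 14714 in control and 11273, 13623 and 12830 in double KD (-0.17 log2, adjusted p = 0.073, and -0.23 without replicate 2, where it passed).

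RPL10, a protein of the catalytic region added late to the large subunit, was at 8819, 8399 and 8885 in control and at 6590, 7925 and 7125 in double KD (-0.27 log2, adjusted p = 0.00447). RPL14, another large-subunit protein, also fell (-0.29 log2, adjusted p = 0.00633). RPS27L, a paralog of RPS27, was at 911, 920 and 990 in control and at 797, 501 and 761 in double KD (-0.48 log2, adjusted p = 0.00571). Its value was -0.27 without replicate 2. It was also low in SIRT1 KD, at 790, 793 and 807, which passed only without double KD replicate 2 (-0.24 log2, adjusted p = 0.0013 in 11 libraries and 0.17 in 12). RPL22L1 fell by 0.39 log2, and by 0.22 without replicate 2, and this call was lost without control replicate 2 or with only the 2 groups compared (adjusted p up to 0.0729). The call of RPL10, RPL11, RPL14, RPL7L1, RPS27L or RPS4X against control was not lost under any of the 25 alternatives.

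**Figure D4:**
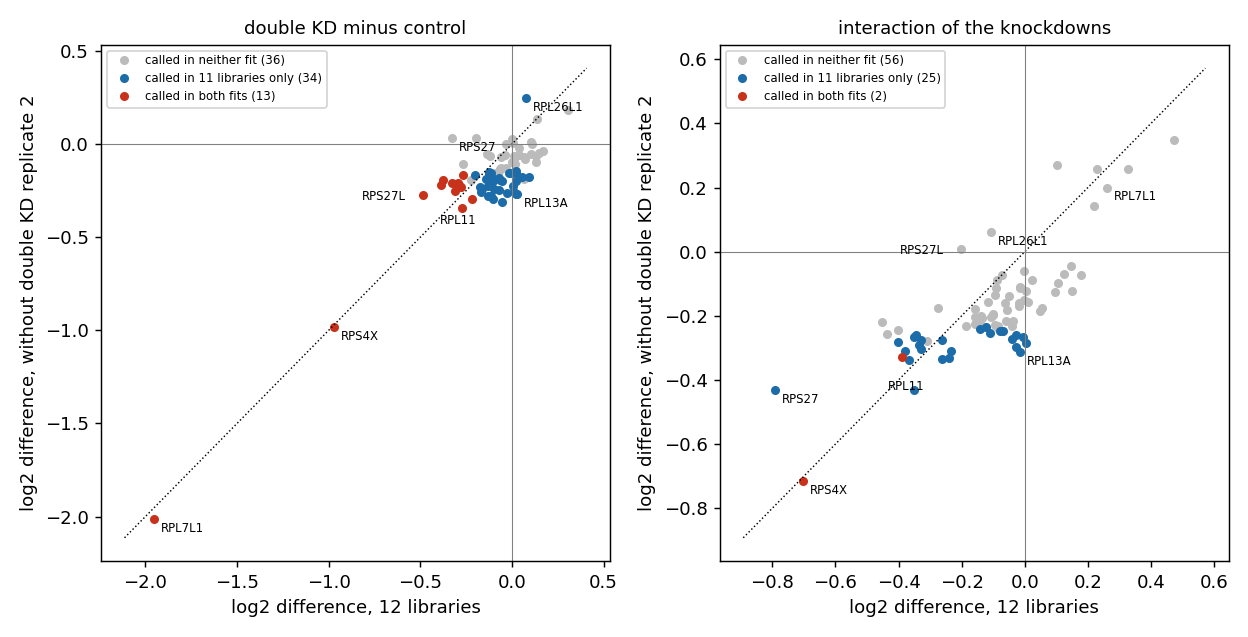
Log2 differences of the 83 members in all 12 libraries (horizontal axis) against those without double KD replicate 2 (vertical axis), for double KD minus control and for the interaction, coloured by which fit called them; the dotted line marks equal values. RPL7L1 and RPS4X lie on the line, whereas most blue points, called in 11 libraries, lie below it.

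RPL26L1, the paralog of RPL26, was the member that rose in double KD without replicate 2. It was at 406, 442 and 431 in control and 491, 355 and 519 in double KD (0.25 log2, adjusted p = 0.0156 in 11 libraries, and 0.08 with adjusted p = 0.66 in 12). RPL26 was at 1864, 1756 and 2015 in control and 1518, 1124 and 1770 in double KD, a fall of 0.38 log2 (adjusted p = 0.0178), or 0.19 without replicate 2. That call was lost without control replicate 3 or with only the 2 groups compared (adjusted p up to 0.0795). RPL39, RPL39L, RPL36A, RPL36AL, RPL3 and RPS27 did not pass against control in 12 libraries, and their values ranged from -0.33 for RPS27 to 0.06 for RPL39.

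The stalk proteins RPLP0, RPLP1 and RPLP2, which recruit translation factors to the large subunit, show how far 1 library decides a value. RPLP1 was at 11635, 11193 and 11161 in control and at 8899, 15671 and 10561 in double KD. Its difference was 0.01 log2 in 12 libraries and -0.22 without replicate 2, and all 3 stalk genes fell in the second fit and none in the first. RPSA, which also serves as a laminin receptor, was at 9411, 9538 and 9724 in control and 8395, 14450 and 9487 in double KD, with differences of 0.13 and -0.10. RPS6 was at 16351, 16157 and 17094 in control and 14132, 19947 and 16688 in double KD. It did not pass in 12 libraries in any comparison with control.

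Against SIRT1 KD the double KD had lower levels of many members, with 29 of 83 falling and none rising by limma (40 and 1 at an unadjusted p under 0.05, and 30 or 31 and 0 by edgeR or DESeq2), where 10.7% of all genes fell and 11.9% rose. By edgeR and DESeq2 the falls were 1931 and 1869 of all 17576 genes, and the rises 2093 and 2149. The median member was at -0.18 log2. Leaving out double KD replicate 2 gave 67 falls and no rise, against 13.5% of all genes, and a median of -0.27. The count was 17 without SIRT1 KD replicate 1 and 19 without SIRT1 KD replicate 3, against 7.41% and 7.32% of all genes. RPL28 was at 17857, 16038 and 17169 in SIRT1 KD and at 11390, 14390 and 13175 in double KD (-0.40 log2, adjusted p = 7.99e-04). RPS18, the most abundant member per kb, was at 30778, 28284 and 30952 in SIRT1 KD and at 20842, 17738 and 24878 in double KD (-0.52 log2, adjusted p = 5.54e-04). RPS15A (-0.39), RPL14 (-0.44) and RPL10 (-0.41) also fell. RPS24 fell by 0.27 log2 (adjusted p = 0.00461), a call lost with only the 2 groups compared (adjusted p = 0.0539).

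Against IGF2BP2 KD the double KD differed in fewer members, with 3 rising and 6 falling, where 16.4% of all genes rose and 15.2% fell. The median was 0.03, or -0.09 without double KD replicate 2, where 3 rose and 18 fell against 18.4% and 17.2% of all genes. Without replicate 1 of double KD 15 rose and 5 fell, against 18.4% and 15.6% of all genes. Without replicate 3 it was 3 and 17, against 14.2% and 14.6%. The falls included RPS4X, RPL7L1, RPL11 and RPS27L. RPL17 rose by 0.49 log2, from 108, 98 and 103 to 132, 173 and 135, at counts near the bottom of the range. RPL6 rose by 0.18 log2 (adjusted p = 0.0391), a call lost under 12 alternatives.

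Over all members the interaction was called in 2 with 12 libraries, RPS4X and RPL11, where 1.16% of all genes were called lower and 1.70% higher. At an unadjusted p under 0.05 the counts were 19 lower and 2 higher, again without a share of all genes. The count called lower was 3 by edgeR and 10 by DESeq2, against 253 and 393 of all 17576 genes. Omitting double KD replicate 2 gave 27 of 83 called lower and 0 higher by limma (55 and 3 at an unadjusted p under 0.05), against 3.88% and 5.86% of all genes, and the median moved from -0.09 to -0.21. When double KD replicate 3 was omitted the count called lower was 13, against 1.48% of all genes. Without replicate 1 that count was 2, against 2.11% of all genes, with a median of 0.00. RPS24 was at -0.33 (adjusted p = 0.055) in 12 libraries and at -0.30 (adjusted p = 0.0104) in 11. RPS27 was at -0.79 with a 95% interval from -1.59 to 0.00 and did not pass in 12 libraries. The comparisons share the control, SIRT1 KD and double KD libraries, so their counts are not independent of each other.

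Members with and without the start tract were set side by side. In SIRT1 KD the median was 0.12 log2 for the 47 members with the tract and 0.08 for the 20 tested members whose listed starts lack it. In IGF2BP2 KD both medians were -0.09. In double KD they were -0.06 with and -0.11 without the tract in 12 libraries, and -0.18 and -0.14 without replicate 2, so their order turned on that library. The medians of the small and the large subunit were both 0.12 in SIRT1 KD and were -0.16 and -0.17 in double KD without replicate 2. None of these differences was tested.

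Among the 5 genes closest to RPS24 in pattern, by Pearson r of log2(normalised count + 1) over the 12 libraries, were HM13 (0.94), ESYT2 (0.93), CWC15 (0.92) and COX7C (0.92), and none of the 5 is a member. In 11 libraries, without double KD replicate 2, the closest 5 included RPS25, a small-subunit member (0.97). The median r of the other members with RPS24 was 0.48, against -0.01 for all genes. Over 11 libraries that median was 0.74. All points share the 4 groups and their libraries.

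Other genes of ribosome production were counted by list, and differences between lists were not tested. Assembly factors, which fold and cleave pre-rRNA and are not part of the finished ribosome, rose in 26 and fell in 6 of 77 in SIRT1 KD (median 0.15), while 12.9% and 15.7% of all genes did. MDN1, the large ATPase that strips factors from the large-subunit precursor, went from 1738 ± 50.2 to 2609 ± 78.7 normalised counts (0.59 log2, adjusted p = 2.0e-06). UTP20, of the small-subunit processome, rose by 0.51 log2 and RSL1D1 fell by 0.45. In IGF2BP2 KD 15 of 77 fell and none rose by limma (23 and 3 at an unadjusted p under 0.05, and 16 and 1 by edgeR), with a median of -0.11, while 9.39% of all genes fell and 6.86% rose, among them the nucleolar helicase DDX21, from 5982 ± 146 to 3431 ± 271 (-0.80 log2, adjusted p = 8.1e-07), and LYAR (-0.62). In double KD 30 rose and 7 fell, against 16.7% and 17.5% of all genes. Against IGF2BP2 KD 46 rose and 2 fell, while 16.4% and 15.2% of all genes did, led by GTPBP4 (0.63), NIP7 (0.70) and NOP56 (0.49). With double KD replicate 2 left out, the counts that rose and fell against control were 37 and 7 in SIRT1 KD, 3 and 26 in IGF2BP2 KD and 35 and 12 in double KD. Of all genes 18.4% and 20.4%, 12.6% and 15.2%, and 19.1% and 20.0% did in that fit.

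The snoRNA host genes, whose spliced transcripts begin with a TOP tract and are mostly noncoding, fell in 8 of 14 in IGF2BP2 KD and in 10 of 14 in double KD by limma, while 9.39% and 17.5% of all genes fell, with medians of -0.35 and -0.39. None rose in either, also at an unadjusted p under 0.05 and by edgeR and DESeq2. GAS5 was at 3279 ± 13.3 in control, 2479 ± 94.6 in IGF2BP2 KD (-0.40 log2, adjusted p = 4.2e-04) and 2453 ± 202 in double KD. ZFAS1 was at 1020 ± 74.7, 781 ± 45.7 and 639 ± 53, and SNHG32 fell as well. In SIRT1 KD 3 of 14 rose and 1 fell, while 12.9% and 15.7% of all genes did. Without double KD replicate 2 the falls were 12 in IGF2BP2 KD and 11 in double KD, against 15.2% and 20.0% of all genes.

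Translation factors with TOP mRNAs were mixed. In SIRT1 KD 5 of 26 rose (12.9% of all genes), led by PABPC1, the poly(A)-binding protein (0.34 log2), and 2 fell (15.7% of all genes), EEF2 and NAP1L1. EEF2, the elongation factor that moves the ribosome along the mRNA, went from 45943 ± 1572 to 30729 ± 2081 normalised counts (-0.58 log2, adjusted p = 1.2e-06) and was at 28730 ± 1314 in double KD. In IGF2BP2 KD 3 fell, EIF3F (-0.43), IMPDH2 (-0.24) and EIF4A2 (-0.23), while 9.39% of all genes fell, and in double KD 8 fell and 2 rose, against 17.5% and 16.7%. Leaving out double KD replicate 2 gave 10 that rose in SIRT1 KD, 8 that fell in IGF2BP2 KD, and 8 that fell and 1 that rose in double KD. The matching shares of all genes were 18.4%, 15.2%, 20.0% and 19.1%. Mitochondrial ribosomal proteins, which build the separate ribosome of that organelle, rose in 10 and fell in 5 of 77 in SIRT1 KD, fell in 5 in IGF2BP2 KD and rose in 13 and fell in 9 in double KD. Their shares that rose, 12.99% in SIRT1 KD and 16.88% in double KD, were near the 12.9% and 16.7% of all genes. The shares that fell were 6.49% in SIRT1 KD, 6.49% in IGF2BP2 KD and 11.69% in double KD, against 15.7%, 9.39% and 17.5% of all genes. FAU, a ribosomal protein made as a ubiquitin-like fusion and left out by the naming rule, did not pass by limma, edgeR or DESeq2 in any comparison with control, nor at an unadjusted p under 0.05.

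**Figure D5:**
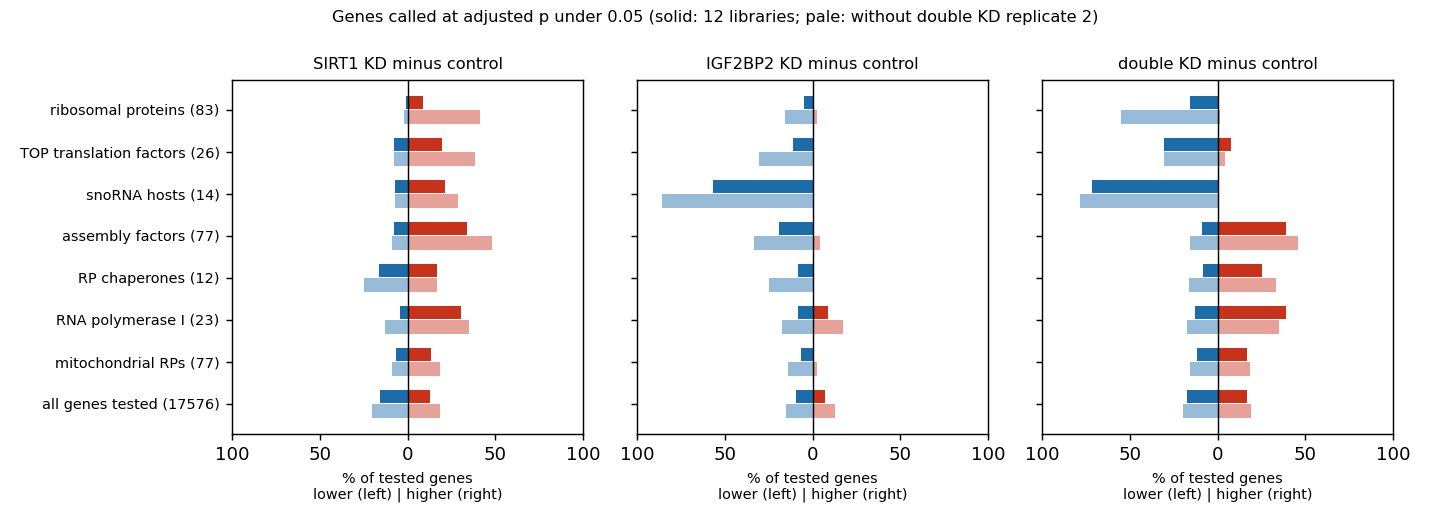
Percent of tested genes in each list called lower (left) or higher (right) than control in the 3 knockdowns, with the number tested in brackets; solid bars use 12 libraries and pale bars leave out double KD replicate 2. For snoRNA hosts 10 of 14 were lower in double KD, while 30 of 77 assembly factors were higher.

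Named regulators of these genes went in both directions. MYC, which drives transcription of ribosomal protein genes and of RNA polymerase I factors, rose by 0.75 log2 in SIRT1 KD (adjusted p = 6.6e-08), fell by 0.19 in IGF2BP2 KD (adjusted p = 0.045) and rose by 0.30 in double KD (adjusted p = 0.0012). YY1 and GABPA, which bind ribosomal protein promoters, fell by 0.81 and 0.66 log2 in SIRT1 KD. Of the RNA polymerase I group 7 of 23 rose and 1 fell in SIRT1 KD, while 12.9% and 15.7% of all genes did, with POLR1A up by 0.39 log2, and NOLC1 fell by 0.74 log2 in IGF2BP2 KD. EIF4EBP2, a repressor of cap-dependent translation downstream of mTORC1, fell by 0.47 log2 in SIRT1 KD and rose by 0.77 in IGF2BP2 KD. Its cap-binding target EIF4E fell by 0.82 in SIRT1 KD. LARP1 rose by 0.20 log2 in SIRT1 KD and by 0.19 in double KD (limma, adjusted p = 0.0087 and 0.0095). In double KD MTOR rose by 0.57 and RPS6KB2 by 0.52, while EIF4E fell by 0.84. Genes of the p53 response also went both ways. MDM2, the ubiquitin ligase that RPL5, RPL11 and RPL23 can bind, fell by 0.75 log2 in SIRT1 KD. BBC3 and SESN2 rose there by 0.67 and 0.52. In IGF2BP2 KD the stress-induced cytokine gene GDF15 fell by 1.23 and MDM4 by 0.40, while SESN1 rose by 0.64.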

How the data were processed

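RNA from 12 libraries was sequenced after Illumina's library protocol. Per the submitters' processing notes CASAVA, STAR and DESeq2 were used with the build GRCh38.p13, while the versions and the strand setting of the counting were not given in any source used here. The deposited values are a signal: gene counts divided by a size factor by the authors. Whole reads were recovered by dividing each column by the value of 1 read (100% of values whole within 0.001). A second table of the authors' log2 ratios was used only to check the columns, and 12 columns of an unlabelled count table were not used. Column codes were read from their letters, with SIRT1 KD by elimination.

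Of 60649 genes 17576 were kept by edgeR 4.0.16 filterByExpr (minimum count 10), and 18112 without double KD replicate 2. Group means were compared with limma 3.58.1 (trend, robust) on log2(normalised count + 1), pseudocount 1, over all 12 libraries, with Benjamini-Hochberg adjustment over all genes kept and a threshold of 0.05. A log2 difference on this scale understates changes of low genes. edgeR quasi-likelihood and DESeq2 1.42.0 on the recovered reads were alternatives, and the fits were tested on simulated data. Symbols were matched for 60507 identifiers, and lengths came from GENCODE 29 exons. Members, lists and tests were chosen with earlier results of these data known. Named genes were, per comparison, the 8 called members with the smallest adjusted p in each direction, the paralogs and their parents, RPS24, RPL5, RPL11, RPS6, RPLP0, RPLP1, RPLP2, RPSA, the 5 most and 5 least abundant, and up to 3 called genes per list. Other members are named where a count or a library singled them out, after their values were seen. Some genes that this rule names are not reported here.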

Additional observations from a re-analysis of the deposited data

Results flagged for a closer look

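For 2 members the change seen with the IGF2BP2 shRNA differed between cells with and without the SIRT1 shRNA, by the interaction in limma. RPS4X was 0.27 log2 lower after IGF2BP2 knockdown in otherwise control cells and 0.97 lower in SIRT1 KD cells, an interaction of -0.7 (adjusted p = 6.32e-04). RPL11 was at 0.14 log2 in control cells and at -0.24 in SIRT1 KD cells, an interaction of -0.39 (adjusted p = 0.0315), which 8 of 24 alternatives did not call.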

How the results depend on the processing

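Over fits that left out 1 library the median of the members ranged from -0.1668 to 0.0315 in double KD against control, from -0.0906 to 0.1342 against IGF2BP2 KD and from -0.2108 to 0.0045 in the interaction, with the ends set by leaving out double KD replicates 2 and 1. RPL13A reached 0.2162, RPLP1 0.1836 and RPS12 0.1603 against control, and RPL13A 0.2679 and RPLP1 0.2107 against IGF2BP2 KD, without replicate 1. The median against IGF2BP2 KD without replicate 2 was -0.0749 with a correction for GC content and gene length added after seeing the data. Without replicate 2, uncorrected and corrected, RPL13A was at -0.27 and -0.23 against control and at -0.22 and -0.19 against IGF2BP2 KD, RPLP1 at -0.22 and -0.22, and at -0.20 and -0.20, and RPS12 was at -0.15 against control without replicate 2. The cause was not tested.

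Leaving out 1 library at a time gave 2 to 34 members higher and 1 to 2 lower in SIRT1 KD, 0 to 2 and 1 to 13 in IGF2BP2 KD, and 0 to 7 and 8 to 46 in double KD. Of all genes 9.39% to 18.4% rose and 11.7% to 20.4% fell in these SIRT1 KD fits. The shares were 3.91% to 12.6% and 6.01% to 15.2% in IGF2BP2 KD, and 12.5% to 19.1% and 13.5% to 20.0% in double KD. The same fits gave 0 and 17 to 67 in double against SIRT1 KD, 2 to 15 and 5 to 18 against IGF2BP2 KD, and 0 and 1 to 27 in the interaction. Of all genes 7.59% to 14.8% rose and 7.32% to 13.5% fell against SIRT1 KD. The shares were 12.8% to 18.4% and 11.5% to 17.2% against IGF2BP2 KD, and 0.343% to 5.86% and 0.299% to 3.88% in the interaction. Without replicate 2 and with the GC and length correction the counts were 47 and 3, 1 and 12, 2 and 41, 0 and 68, 3 and 21, and 0 and 40 in the same order. Of 18112 genes the calls were 3853 and 3714, 2689 and 2859, 3758 and 3682, 2805 and 2815, 3567 and 3345, and 1153 and 1054.

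Fits to only the groups compared, with fewer samples for the spread, gave 48 higher and 3 lower in SIRT1 KD, 2 and 22 in IGF2BP2 KD, 0 and 7 in double KD, 14 lower against SIRT1 KD, and 1 and 3 against IGF2BP2 KD. Of the 16549 to 16865 genes tested in these fits, 3797 rose and 3987 fell in SIRT1 KD, and 2355 and 2767 in IGF2BP2 KD. The counts were 2092 and 2363 in double KD, 1107 and 1144 against SIRT1 KD, and 1839 and 1801 against IGF2BP2 KD. In SIRT1 KD the members higher were 11 with no filter, by edgeR and by DESeq2, 4 with TMM scaling with or without ribosomal protein and mitochondrial genes, 13 with the length correction and 16 with GC and length. Of 44287 genes 1856 rose with no filter. Of 17576 genes 2497 rose by edgeR, 2369 by DESeq2, 1999 and 2026 with TMM, 2530 with length and 3119 with GC and length. The length correction gave 2 lower in IGF2BP2 KD, and GC and length gave 2 higher in double KD and 5 higher against IGF2BP2 KD. Among all 17576 genes these counts were 1678, 3595 and 3512. Against IGF2BP2 KD 10 were lower with no filter and 11 with either TMM scaling. All-gene counts were then 2293 of 44287 with no filter, and 2909 and 2901 of 17576 with the TMM scalings. The interaction called 8 with no filter, 10 by DESeq2, 7 with the length correction and 10 with GC and length, all lower. It called 184 of all 44287 genes lower with no filter, and 393, 263 and 699 of 17576 in the other fits.

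The replicate numbers were not used to pair the samples in the main fit. Correlations of deviations between same-numbered libraries were -0.19 to 0.0996. The same-numbered library was the closest match in some cases and not in others. With 3 libraries per group these values cannot settle whether the samples were paired. With the replicate block 11 members were lower against IGF2BP2 KD and 5 in the interaction, and with the block and the length correction 13 were higher in SIRT1 KD, 12 lower against IGF2BP2 KD and 9 in the interaction. Of all 17576 genes the counts were 2721 and 201 with the block, and 2584, 2803 and 270 with the block and length correction. With the block, GC and length the counts were 17 higher and 2 lower in SIRT1 KD, 2 higher in double KD, 17 lower against IGF2BP2 KD and 16 in the interaction. Over all 17576 genes these counts were 3081 and 3096, 3573, 3179 and 686, in the same order. With the block alone no other count moved by over 1.5 times.

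The share of reads without mitochondrially encoded genes in the total was 3.90% in control, 4.20% in SIRT1 KD and 3.74% in IGF2BP2 KD. Without the 3 most abundant members it was 3.42%, 3.66%, 3.26% and 3.25% in the 4 groups. Leaving out 1 library at a time gave 3.79% to 3.85%, 4.05% to 4.14%, 3.62% to 3.66% and 3.45% to 3.78%. With no filter the median of all genes moved by as much as -0.10. Of 47 calls of named members 26 held under every alternative run for them. Members with few reads, such as RPL36A and RPL17, allow only large differences to be seen.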
